A study of Arabidopsis thaliana with 4 samples.

Results

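CHH losses in the centromere-proximal core are the stretches of centromere-adjacent DNA where cytosines in the CHH context (H stands for A, C or T) were less methylated in ndx1-4 than in Col-0. Members were chosen by their measured CHH levels and their position: they were the CHH regions in the deposited table of differentially methylated regions with a lower ndx1-4 than Col-0 level and a midpoint inside the core, which spanned 13.6-16.2 Mb of chromosome 1, 3.9-5.5 Mb of chromosome 2, 11.7-15.2 Mb of chromosome 3, 3.1-5.1 Mb of chromosome 4 and 10.6-13.4 Mb of chromosome 5. There were 788 of them among 3177 listed CHH regions of the nuclear chromosomes and 7023 listed regions of every context. Whole-genome bisulfite sequencing, which turns unmethylated cytosines into thymines and leaves methylated ones as they are, was run on genomic DNA of 14-day-old Arabidopsis thaliana seedlings. The groups were wild-type Col-0 and the mutant ndx1-4, an insertion allele of NDX (AT4G03090), which encodes the homeobox protein NODULIN HOMEOBOX. Each genotype had 2 libraries with 15 to 17 M raw reads each by the labels, and nothing in them told whether the 2 came from separate plant cultures. The deposited table held 1 pooled methylation level per genotype and region, so no spread between libraries could be computed and the read depth behind a level is unknown. Since the same contrast chose the members, their levels are given as a description, with no test.

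In plants, cytosines are methylated in the symmetric CG and CHG contexts and in the asymmetric CHH context, which has no methylated partner on the other strand to be copied from after replication. CHH methylation is kept up by CHROMOMETHYLASE 2, which is guided by methylated histone H3 lysine 9 in large heterochromatic elements, and by the RNA-directed pathway, in which short RNAs guide the methyltransferase DRM2. The DNA around Arabidopsis centromeres is rich in satellite repeats and in old transposons, is densely methylated in the CG and CHG contexts and carries moderate CHH methylation.

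The sequences below show what kind of DNA the losses lay in. They were read from the RefSeq TAIR10.1 genome on the plus strand, 5′ to 3′, and capitals mark cytosines in a CHH context, as C on the printed strand and as G where the cytosine lies on the other strand. The first set holds the middle of the member with the largest absolute area statistic on each chromosome, a score in the deposited table that grows with the number of cytosines and the strength of the difference.
chr1:14678218-14678517 (chromosome 1 member, outside genes): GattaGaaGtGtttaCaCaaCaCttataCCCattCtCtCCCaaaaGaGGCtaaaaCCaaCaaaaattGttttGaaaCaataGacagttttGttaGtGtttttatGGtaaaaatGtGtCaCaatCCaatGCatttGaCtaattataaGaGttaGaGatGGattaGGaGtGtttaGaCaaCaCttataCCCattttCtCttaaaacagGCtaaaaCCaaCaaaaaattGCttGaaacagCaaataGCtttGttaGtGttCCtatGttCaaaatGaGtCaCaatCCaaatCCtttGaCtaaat
chr2:4733563-4733862 (chromosome 2 member, GA runs, outside genes): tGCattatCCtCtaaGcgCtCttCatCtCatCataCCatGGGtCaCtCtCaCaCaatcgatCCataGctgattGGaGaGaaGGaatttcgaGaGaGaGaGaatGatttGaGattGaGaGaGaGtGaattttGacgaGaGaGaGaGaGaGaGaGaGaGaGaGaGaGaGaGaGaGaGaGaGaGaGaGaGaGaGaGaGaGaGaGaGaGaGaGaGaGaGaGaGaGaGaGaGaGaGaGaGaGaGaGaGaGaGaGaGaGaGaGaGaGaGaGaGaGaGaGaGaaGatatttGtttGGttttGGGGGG
chr3:14684777-14685076 (chromosome 3 member, outside genes): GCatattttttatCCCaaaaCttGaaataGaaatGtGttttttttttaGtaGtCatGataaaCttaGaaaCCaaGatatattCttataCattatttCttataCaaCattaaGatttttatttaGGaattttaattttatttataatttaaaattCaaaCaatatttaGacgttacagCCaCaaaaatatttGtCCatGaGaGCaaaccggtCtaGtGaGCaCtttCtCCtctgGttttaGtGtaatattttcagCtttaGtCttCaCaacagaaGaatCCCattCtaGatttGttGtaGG
chr4:4121854-4122153 (chromosome 4 member, pseudogene AT4G07324): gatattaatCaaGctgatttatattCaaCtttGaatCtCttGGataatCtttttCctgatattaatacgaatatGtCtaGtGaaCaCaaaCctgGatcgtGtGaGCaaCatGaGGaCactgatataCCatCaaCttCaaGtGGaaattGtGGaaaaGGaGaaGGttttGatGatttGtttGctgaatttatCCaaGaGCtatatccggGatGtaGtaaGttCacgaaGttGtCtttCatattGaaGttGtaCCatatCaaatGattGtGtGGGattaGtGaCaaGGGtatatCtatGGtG
chr5:10772575-10772874 (chromosome 5 member, outside genes): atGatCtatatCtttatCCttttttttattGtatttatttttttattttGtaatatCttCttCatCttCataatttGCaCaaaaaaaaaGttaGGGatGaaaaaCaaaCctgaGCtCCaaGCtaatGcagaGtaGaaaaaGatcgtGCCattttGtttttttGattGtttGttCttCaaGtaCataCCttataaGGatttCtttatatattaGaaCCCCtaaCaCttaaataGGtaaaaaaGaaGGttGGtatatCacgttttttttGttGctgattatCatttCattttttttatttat
The next set holds members of the 3 largest families of members that shared stretches of 31 identical bases. The first belongs to the largest family, and the other ones were picked after their values were seen.
chr1:14964171-14964470 (159-bp repeat family): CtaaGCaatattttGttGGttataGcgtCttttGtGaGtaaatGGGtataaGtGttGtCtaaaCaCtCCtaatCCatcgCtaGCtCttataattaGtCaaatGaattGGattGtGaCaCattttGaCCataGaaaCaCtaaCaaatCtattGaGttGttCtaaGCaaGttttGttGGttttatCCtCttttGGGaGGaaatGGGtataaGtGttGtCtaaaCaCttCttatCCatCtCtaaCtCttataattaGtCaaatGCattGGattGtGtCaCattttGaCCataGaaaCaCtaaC
chr4:3971783-3971941 (178-bp repeat family): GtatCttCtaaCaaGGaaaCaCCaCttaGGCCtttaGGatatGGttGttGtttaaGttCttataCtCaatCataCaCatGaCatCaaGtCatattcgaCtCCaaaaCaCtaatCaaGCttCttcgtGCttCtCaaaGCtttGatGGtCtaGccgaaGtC
chr3:14254387-14254469 (GA-rich family): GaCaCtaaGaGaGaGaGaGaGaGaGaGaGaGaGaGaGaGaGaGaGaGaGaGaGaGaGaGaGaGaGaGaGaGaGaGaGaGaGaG

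CHH losses were dense in the core. The core made up 10.5% of the nuclear chromosomes and held 42.7% of their CHH losses, or 63.0 losses per Mb. The flanks, the 2 Mb on each side of a core, held 658 losses (32.9 per Mb), and the arms, meaning the remainder, held 399 (4.60 per Mb). CHH gains, the regions with a higher ndx1-4 level, numbered 99 in the core (7.92 per Mb), 367 in the flanks (18.4 per Mb) and 866 on the arms (9.99 per Mb). Of the listed CHH regions, 88.8% were losses in the core, 64.2% in the flanks and 31.5% on the arms, beside 58.1% of all 3177 nuclear ones. The members together covered 113830 bp, 0.911% of the bases of the core.

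Losses outnumbered gains in all 5 cores. Chromosome 1 had 154 members, chromosome 2 had 90, chromosome 3 had 207, chromosome 4 had 137 and chromosome 5 had 200. The density ran from 56.3 per Mb on chromosome 2 to 71.4 per Mb on chromosome 5. The excess over the flanks was not the same: the flanks of chromosome 2 held 48.5 losses per Mb, those of the other chromosomes 24 to 31.25. The share of losses among the listed CHH regions of a core ran from 86.5% on chromosome 2 to 90.9% on chromosome 5. Split into 125 bins of 100 kb, the cores held 0 to 15 members per bin, with a median of 6, and losses outnumbered gains in 117 bins. Gains outnumbered losses in 1 bin, on chromosome 4. The fullest bin was chr4:4000001-4100000, with 15 members and 1 gain, and the bins chr1:15300001-15400000 and chr2:5300001-5400000 held no member and no gain.

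**Figure D1:**
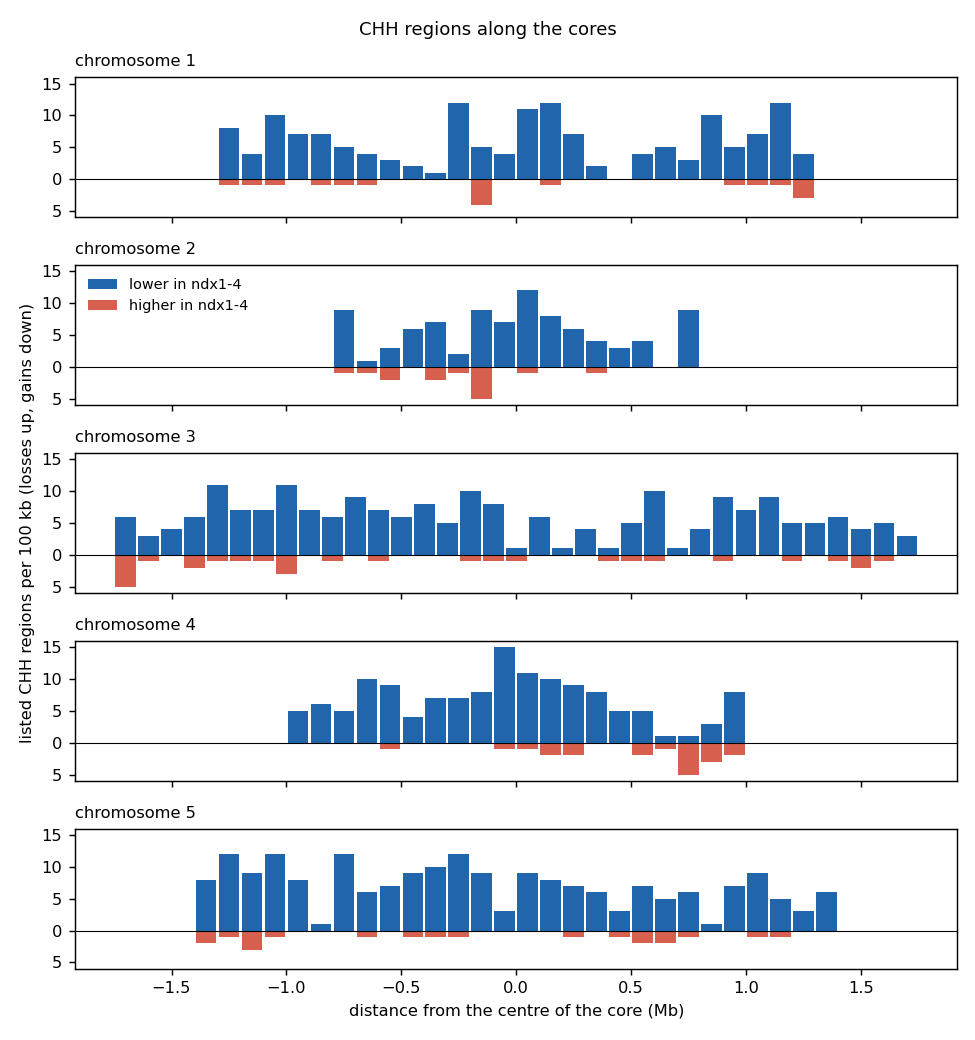
Number of listed CHH regions in each 100-kb bin of the 5 cores against the distance of the bin from the centre of its core in Mb, with losses drawn upward and gains downward. Losses reached 15 per bin and outnumbered gains in 117 of 125 bins.

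Members were small and mostly apart from each other. Their length ran from 51 to 2972 bp with a median of 121.5 bp, and they held 8 to 151 cytosines, with a median of 35. The median gap to the next member on a chromosome was 8995 bp, and 95 of 783 gaps were at most 1 kb. Joining members at most 1 kb apart gave 693 stretches, of which 612 held a single member and 2 held 4. These were chr1:14695499-14698047 and chr5:10774672-10777265, where the mean level over cytosines went from 0.133 in Col-0 to 0.0600 in ndx1-4 and from 0.126 to 0.0548. In 590 members the number of cytosines in the table equalled the number of CHH cytosines of both strands in the reference. The longest member, chr3:13764946-13767917, was the opposite case, with 36 cytosines used of 830 in the reference (4.34%) across 2972 bp, so its levels (Col-0 0.209, ndx1-4 0.0526) describe a small part of that stretch. It is named here after its values were seen.

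Core losses were partial. The Col-0 level ran from 0.0449 to 0.445 with a median of 0.145, where 1 would mean that every read of every cytosine was methylated. The ndx1-4 level ran from 0.00629 to 0.286 with a median of 0.0661. The difference had a median of −0.0759, and the share of the Col-0 level left in ndx1-4 had a median of 46.0%, with quartiles of 39.3% and 52.3%. In 522 members (66.2%) less than 50% of the level was left, and in 31 members (3.93%) less than 25%. The fall was at least 0.1 in 123 members (15.6%) and the difference went down to −0.284.

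**Figure D2:**
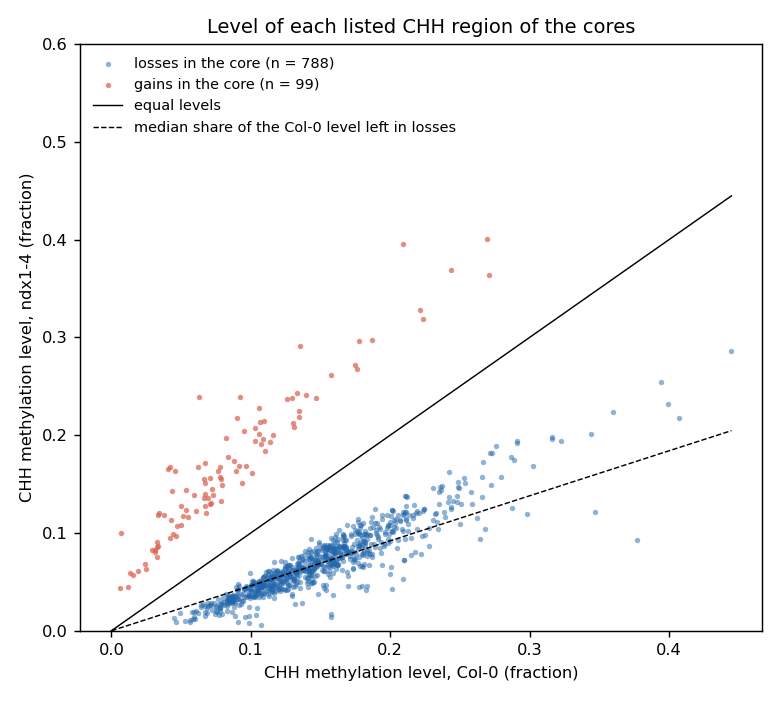
CHH methylation level in ndx1-4 against that in Col-0, as fractions, for the 788 losses (blue) and the 99 gains (red) of the cores, each point being 1 region with its pooled level. The solid line marks equal levels, and the dashed line marks the median share left of the losses, 46.0%. The share left tended to be lower at low Col-0 levels and higher at high ones.

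The largest falls were found in short, partly repeated stretches of chromosomes 1 and 5 and in a longer, almost unique one of chromosome 4 (83.9%, 39.8% and 3.83% of their 31-base words recurred elsewhere in the genome). At chr1:15829284-15829369, in pseudogene AT1G42365, Col-0 stood at 0.377 and ndx1-4 at 0.0927, over 20 cytosines. At chr5:11768797-11768939, in pseudogene AT5G31927, Col-0 stood at 0.347 and ndx1-4 at 0.122, over 23 cytosines. In both, fewer cytosines were used than the reference holds, 20 of 27 and 23 of 51. At chr4:3768170-3768591, which lay 1499 bp from protein-coding AT4G06634, Col-0 stood at 0.407 and ndx1-4 at 0.218, over 109 of 110 cytosines. This last member also had the second highest Col-0 level, between chr4:4547789-4547872 in pseudogene AT4G07747 (0.445 in Col-0, 0.286 in ndx1-4) and chr4:4340253-4340441 (0.399 and 0.232). The 3 highest Col-0 levels of the core thus all lay on chromosome 4, and more than 50% of the level was left in each. The level at chr4:4547789-4547872 rested on 13 of 28 cytosines and that at chr4:4340253-4340441 on 34 of 41.

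In 3 members less than 10% of the Col-0 level was left. At chr3:13718390-13718448 the level went from 0.108 in Col-0 to 0.00629 in ndx1-4, a share left of 5.84%. At chr3:12357592-12357837, in protein-coding AT3G30730, it went from 0.0989 to 0.00819 (8.28% left), and at chr4:3249075-3249130 from 0.157 to 0.0136 (8.68% left). Every 31-base word of the first and the last of these recurred elsewhere in the genome, whereas none of those in AT3G30730 did. The first rested on 13 of 17 CHH cytosines in 59 bp and the last on 17 of 23 in 56 bp. The member in AT3G30730 rested on 65 of 65.

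Members with the largest area statistic on each chromosome were long, and they differed in how much was left. The chromosome 4 member in pseudogene AT4G07324, chr4:4121745-4122263, had the most cytosines of all members, 151, and went from 0.0984 in Col-0 to 0.0241 in ndx1-4 (24.5% left). The chromosome 5 member, chr5:10772525-10772926, went from 0.126 to 0.0417 (33.0% left), and the chromosome 3 member, chr3:14684661-14685193, from 0.114 to 0.0461 (40.4% left). Both were almost free of 31-base words found elsewhere in the genome, as the AT4G07324 member largely was (14.5% of its words). The chromosome 2 member, chr2:4733549-4733877, with the long GA runs printed above, went from 0.298 to 0.119 (40.0% left). The chromosome 1 member, chr1:14678188-14678549, in the 159-bp repeat printed above, went from 0.169 to 0.0818 (48.3% left).

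How much was left moved with the Col-0 level. In 4 sets of 197 members each by rising Col-0 level, the median share left was 37.8% in the lowest set (Col-0 median 0.0950), 45.0% in the next (0.129), 48.6% in the one after (0.159) and 52.8% in the highest (0.207). The median difference went the other way, from −0.0560 in the lowest set to −0.10 in the highest. Over the 788 members, Spearman's rho was 0.91 between the Col-0 and the ndx1-4 level and 0.56 between the Col-0 level and the share left. These are descriptions across regions of the same pooled libraries, the Col-0 level enters both sides of the latter one, and a region needed a large enough difference to be listed. The share left differed by a median of 6.52 percentage points between next members at most 1 kb apart (95 pairs) and by 8.64 points between next members farther apart (688 pairs).

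The levels were much the same in every core and overlapped across its edges. The median Col-0 level ran from 0.125 on chromosome 2 to 0.156 on chromosome 4, and the median share left from 42.0% on chromosome 2 to 48.0% on chromosome 1. The 10 members nearest to the edges, 934 to 34922 bp inside, had Col-0 levels of 0.0776 to 0.288 and shares left of 21.1% to 60.4%. The 10 losses nearest to the edges outside, at 1410 to 52319 bp, had 0.117 to 0.263 and 26.1% to 63.4%. The first loss inside the right edge of chromosome 3, at chr3:15186778-15186987, had levels of 0.288 and 0.174, and the first outside, at chr3:15252154-15252484, had 0.263 and 0.148. The regions on either side of an edge thus overlapped in level.

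Side by side with the other CHH losses, members looked like those of the flanks. Flank losses had a median Col-0 level of 0.141, a median ndx1-4 level of 0.0640 and a median share left of 46.0%. Arm losses had medians of 0.143, 0.0563 and 39.4%, and their shares left were more spread, with quartiles of 21.7% and 52.4%. The 99 core gains went from a median of 0.0729 in Col-0 to 0.161 in ndx1-4, and the core losses ended at a median of 0.0661. Gains also started near the level at which losses ended in the flanks (0.0657 and 0.0640) and on the arms (0.0561 and 0.0563). Gains and losses were listed by the same contrast of the same pooled levels. None of these differences was tested.

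**Figure D3:**
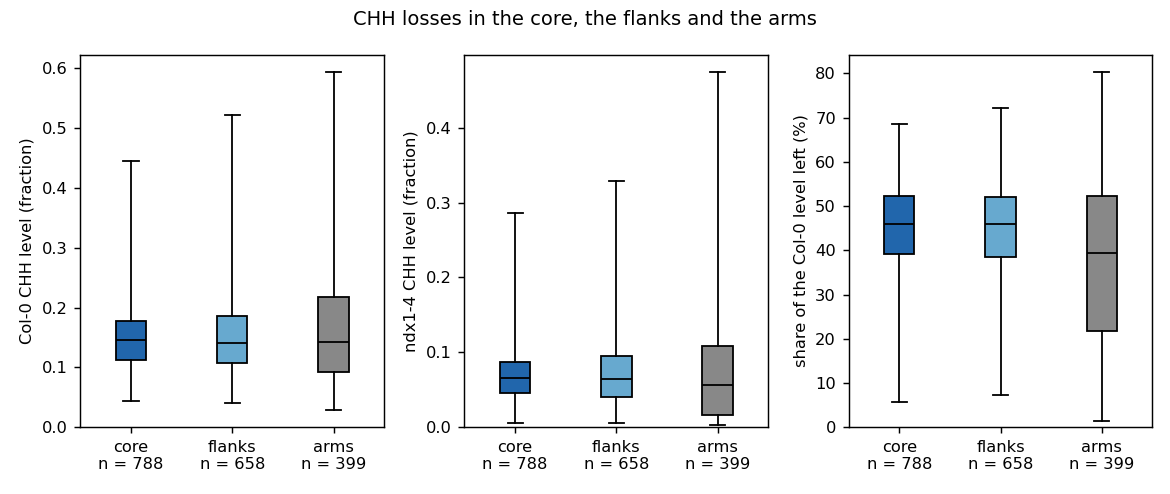
Pooled CHH level in Col-0 and in ndx1-4, as fractions, and the share of the Col-0 level left in ndx1-4 in percent, for CHH losses of the core (n = 788), the flanks (n = 658) and the arms (n = 399). Boxes give quartiles and medians and whiskers the lowest and highest region, and the median share left was 46.0% in the core and the flanks and 39.4% on the arms.

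Nearly all members were listed in the CHH context alone. Sharing at least 1 base was counted as an overlap. A listed CHG region with a lower ndx1-4 level overlapped 25 members (3.17%), against 7.76% of the 1057 nuclear CHH losses outside the core (4.71% in the flanks and 12.8% on the arms). A lower CG region overlapped 15 members (1.90%), against 11.0% of the losses outside (5.62% in the flanks and 19.8% on the arms). The flanks thus lay nearer to the core than the arms did, and these differences were not tested. Both kinds overlapped 10 members, neither overlapped 758 (96.2%), and 0 members overlapped a CHG region with a higher ndx1-4 level. Seen from the other contexts, 26 of the 159 lower CHG regions of the core (16.4%) and 12 of its 105 lower CG regions (11.4%) overlapped a member. Over all 788 members, overlapping ones included, the median distance was 29816 bp to the nearest lower CHG region and 50392 bp to the nearest lower CG region. How this compares with other positions in the core was not tested. In the reference, 130 members held no CHG site and 171 no CG site.

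Of the few members with losses in other contexts, those with a lower CG region stood at the low end of the CHH levels. The 25 members with a lower CHG region had a median Col-0 level of 0.103, a median share left of 33.7% and a median length of 228 bp, against 0.147, 46.2% and 120 bp in the other ones. Of these 25, 15 were in the lowest of the 4 sets by Col-0 level, 4 in the next and 3 in each of the higher ones. The 15 with a lower CHG region only had Col-0 CHH levels of 0.0623 to 0.215. All 15 members with a lower CG region were in the lowest of the 4 sets by Col-0 level. Chromosome 2 held 8 of the 15. There, around AT2G11405, an uncharacterized protein-coding gene that holds all of chr2:4543225-4543460, CHH fell from 0.0864 to 0.0193 and the CG region across it from 0.887 to 0.133. Beside this loss lay a CHH gain, chr2:4541934-4543126, that overlapped the same lower CG region. Its CHH level rose from 0.0631 in Col-0 to 0.239 in ndx1-4. The next member, chr2:4543887-4544148 at pseudogene AT2G11410, went from 0.0989 to 0.0150 in CHH, with CHG at 0.526 in Col-0 and 0.0405 in ndx1-4. Of the members with both overlaps, those with the largest area statistics were chr2:5003031-5003323, chr5:13361667-13362044 and chr2:5010667-5010991. At the first, CHH went from 0.0889 to 0.0149, CG from 0.400 to 0.0287 and CHG from 0.382 to 0.0363, so that little was left in any context.

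**Figure D4:**
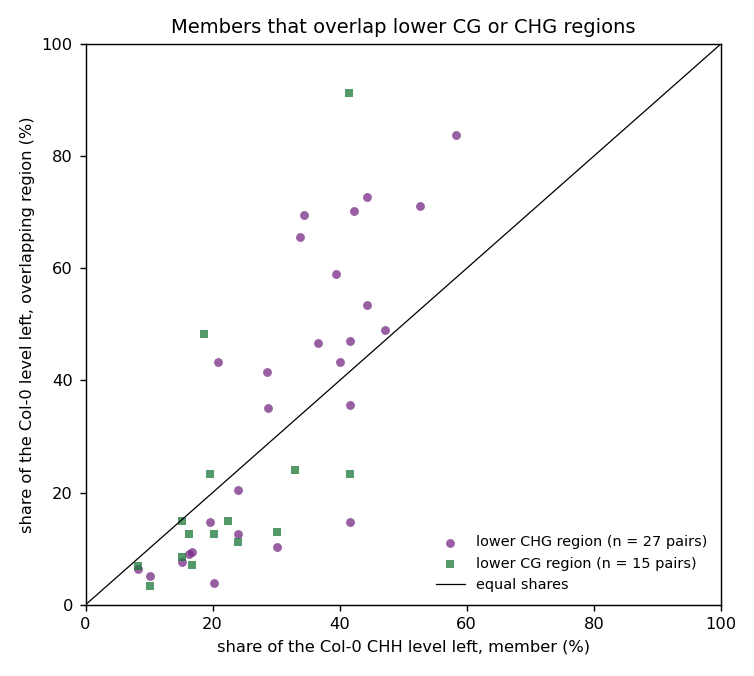
Share of the Col-0 level left in ndx1-4, in percent, in a lower CHG region (27 pairs, circles) or a lower CG region (15 pairs, squares) against that in the CHH member it overlapped, with each point 1 pair of regions and the line marking equal shares. Points lay low at chr2:5003031-5003323 (16.8% of CHH, 7.18% of CG and 9.50% of CHG left) and apart at chr3:13332124-13332314 (18.6% of CHH and 48.2% of CG left).

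One of the members lay in DNA that gained CG methylation. At chr3:14761955-14762292 the CHH level went from 0.344 in Col-0 to 0.201 in ndx1-4 over 110 cytosines. It overlapped a CG region that went from 0.544 to 0.845 and another from 0.550 to 0.837. The member lay 1326 bp upstream of CLSY1 (AT3G42670, minus strand, chr3:14755798-14760629), which encodes a chromatin remodeller of the RNA-directed DNA methylation pathway. On the other side of that gene, 907 bp from it, a CG region fell from 0.782 to 0.274.

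Among 30 genes of DNA methylation and its control, 27 were matched by symbol to the annotation (CLSY2, CLSY3 and CLSY4 were not), and CLSY1 was the only one of these located in the core. Within the gene or 2 kb of it, 3 of the 27 had a lower CHH region: CLSY1, the methyltransferase gene DRM1 and the ATPase gene MORC6. None had a higher CHH region, and 7 had a listed CG or CHG region. Of the 27444 protein-coding genes of the nuclear chromosomes, 3.58% had a lower CHH region in the same window, 6.25% a higher one and 15.7% a CG or CHG region, and with so few pathway genes nothing is read from the difference. The genes for CMT2, the main CHH methyltransferase of heterochromatin, and for NRPD1, the large subunit of RNA polymerase IV, had no listed region of any context. The table gives methylation, and expression of these genes was not analysed here.

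Members lay mostly in unannotated DNA and in pseudogenes. In the RefSeq annotation 440 members (55.8%) touched no gene record. For the losses outside the core this share was higher, 60.7% (61.4% in the flanks and 59.6% on the arms). Pseudogenes were touched by 305 members (38.7%), against 22.1% of the losses outside the core (26.7% in the flanks and 14.5% on the arms). Protein-coding genes were touched by 39 members (4.95%), against 15.5% of the losses outside (10.5% in the flanks and 23.8% on the arms). Among the 123 members with a fall of at least 0.1, the shares were 54.5% in pseudogenes and 0.813% in protein-coding genes. The core itself holds 2155 pseudogenes, of which 262 were touched, and 443 protein-coding genes, of which 36 were. Members outside genes had a median of 47.3% of the Col-0 level left, those in pseudogenes 45.0% and those in protein-coding genes 40.0%. RefSeq rarely names transposons here, since only 2 members touched a record with transposon words: a transposase gene of the En/Spm class (AT3G30200, 0.0860 in Col-0 and 0.0289 in ndx1-4) and the retroelement SADHU3-2 (AT3G42658, 0.157 and 0.0722).

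The locus with the most members was AT5G32690, annotated as a pseudogene of a Myb/SANT-like protein, with 5. Its record is long (chr5:12332283-12390801), and counts per locus were not set against locus length. Across these 5 members the Col-0 level ran from 0.119 to 0.272, the ndx1-4 level from 0.0550 to 0.149 and the share left from 46.4% to 60.0%. The member with the highest Col-0 level there also lay in pseudogene AT5G32750, inside the same span. Pseudogene AT5G33256 held 4 members, with 0.159 to 0.248 in Col-0 and 0.0746 to 0.132 in ndx1-4. Protein-coding AT1G39070 and pseudogenes AT1G40101 and AT2G10350 held 3 members each. AT1G39070 also held CHH gains, at chr1:14734653-14734711, chr1:14741463-14741572 and chr1:14744002-14744181. These had Col-0 levels of 0.106 to 0.131 and ndx1-4 levels of 0.184 to 0.209. The gene lay within the chromosome 1 span of the 159-bp repeats, and the same gains are counted again below with those repeats.

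In protein-coding genes, 32 of the 39 members touched coding sequence, 5 lay in introns and 2 in untranslated exons. The largest area statistics belonged to chr1:14930970-14931285 in an intron of uncharacterized AT1G40086 (0.132 in Col-0, 0.0456 in ndx1-4), to chr5:13361667-13362044 and to chr2:5010667-5010991. The chromosome 5 member reached over the 5′ untranslated exon of AT5G35100, which encodes a cyclophilin-like peptidyl-prolyl isomerase, an enzyme class that helps proteins fold. Its CHH level went from 0.0596 to 0.0143, and the CG region inside it from 0.304 to 0.0341. In uncharacterized AT2G12405 the CHH level went from 0.0781 to 0.0235, CG from 0.660 to 0.0855 and CHG from 0.260 to 0.0268. The member in AT1G40086 overlapped no lower CG or CHG region, and it belongs to the 159-bp repeat family.

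In base composition, members as a whole set were close to the core as a whole. Their median GC content was 37.0%, against 38.0% over 121-bp windows laid end to end along the cores, and they held a median of 30.0 CHH cytosines per 100 bp, against 27.7 over the core. The trinucleotides CAA and CTA (together CWA), which CHROMOMETHYLASE 2 prefers, made up 28.8% of the CHH cytosines of members, 27.9% of those of the core, 27.5% of those of flank losses and 32.0% of those of arm gains. The 123 members with a fall of at least 0.1 stood apart, with a median GC content of 41.8% and 24.6% of CHH cytosines in CWA. The most frequent trinucleotides in members were CAA (17.2%) and CTT (16.5%). In 178 of the 788 members the CHH cytosines of one strand exceeded those of the other by at least 50% of all CHH cytosines. This count was made for members only, so whether it differs from other DNA of the core is not known.

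Part of the DNA was repeated, and the repeated members had more left. A median of 18.1% of a member's 31-base words recurred elsewhere in the genome, against 20.9% in the windows of the core. This median depended on the word length, as it was 0 with words of 50 bases. No 31-base word recurred in 247 members, at least 50% did in 239 and every word in 62. Members with no repeated word had a median Col-0 level of 0.118 and 42.8% left, and those with at least 50% repeated words had 0.161 and 49.7% left. Alignment of short reads is less certain in repeated sequence, and its part in these levels was not tested.

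Shared words tied 131 members into 29 families, and 3 of them held 8 or more. Members in families had a median Col-0 level of 0.168 and 51.9% left, against 0.140 and 45.0% in the other 657. The largest family had 37 members in tandem repeats of about 159 bp, with 30 at chr1:14670685-15032927 and 7 at chr4:4013432-4064163. On chromosome 1 the Col-0 level ran from 0.105 to 0.211 and the median share left was 48.9%. On chromosome 4 it ran from 0.166 to 0.233 and the median share left was 54.9%. None of the 37 overlapped a lower CHG or CG region.

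The second family had 16 members in tandem repeats of 178 bp, the spacing known for the Arabidopsis centromeric satellite. Of these, 12 lay at chr5:11734533-12064943, 3 at chr4:3970773-3987775 and 1 at chr1:14544112-14544274. The Col-0 level ran from 0.119 to 0.204 and the ndx1-4 level from 0.0419 to 0.124, with a median share left of 51.9%. None of the 16 overlapped a lower CHG or CG region.

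**Figure D5:**
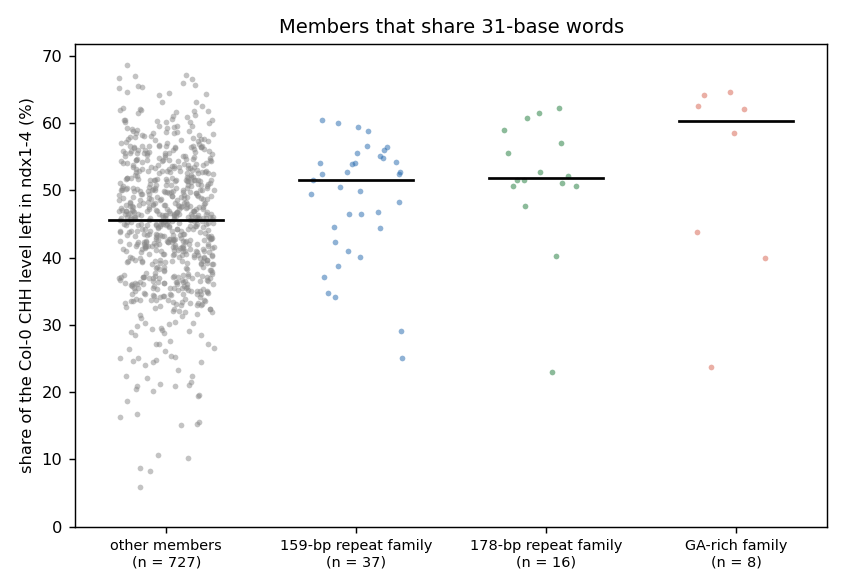
Share of the Col-0 CHH level left in ndx1-4, in percent, for the 37 members in the 159-bp repeat family, the 16 in the 178-bp repeat family, the 8 in the GA-rich family and the other 727 members, with 1 point per member and a bar at the median. Medians were 51.6%, 51.9% and 60.3% in the 3 families, which overlapped with the range of the other members.

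By spacing alone, without shared words, 46 members (5.84%) lay in repeats of about 159 bp and 25 (3.17%) in repeats of about 178 bp. A 1000-bp window had to have more than 3% of its 15-base words recur at a distance of 150 to 200 bp. The spacing was the commonest such distance. Gains were found in the same DNA: 9 of the 99 core gains (9.09%) had the 159-bp spacing, and 1 had the 178-bp spacing. Of the 9, 5, among them those in AT1G39070, lay on chromosome 1 at chr1:14707626-15019751, inside the span of the losses. There the gains had Col-0 levels of 0.0729 to 0.131 and ndx1-4 levels of 0.139 to 0.209, and the 36 losses had Col-0 levels of 0.105 to 0.211 and ndx1-4 levels of 0.0422 to 0.0986. Each of these 5 gains shared at least 1 word of 31 bases with a 159-bp-spaced loss of the chromosome, so related repeat copies were listed in both directions.

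The GA-rich family had the highest levels. It held the 8 members with a run of 8 GA dinucleotides (GAGAGAGAGAGAGAGA, or its reverse complement TCTCTCTCTCTCTCTC), and 5 of the 12 members with a Col-0 level of at least 0.3 were among them. Their Col-0 level ran from 0.0741 to 0.445 with a median of 0.330, the median ndx1-4 level was 0.20 and the median share left was 60.3%. The other 780 members had medians of 0.145, 0.0655 and 46.0%. The highest were the chr4:4547789-4547872 member already described, chr3:14305226-14305372 (0.394 and 0.255) and chr3:12242937-12243049 (0.360 and 0.224). The lowest was chr2:4648421-4648597 (0.0741 and 0.0176). At the printed chr3:14254387-14254469, where the level went from 0.316 to 0.198, 39 of 41 CHH cytosines lay on the strand with the CT run.

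Such runs were not particular to the losses of the core. In 121-bp windows at region midpoints, the run was present in 0.888% of members, 1.06% of flank losses, 1.00% of arm losses and 2.02% of core gains, against 0.0560% of the 101705 windows laid along the cores. The run was searched for after the family had been seen. The plant telomere unit CCCTAAA, or its reverse complement TTTAGGG, was in 3.43% of the windows at members and in 2.89% of the windows along the cores. The 34 members that held it had medians of 0.164 in Col-0 and 43.2% left, close to the other 754 with 0.145 and 46.1%.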

How the data were processed

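Genomic DNA of 4 seedling libraries, 2 per genotype, was bisulfite-sequenced as paired 150-base reads. Per the submitters' processing notes the reads were aligned with Bismark to TAIR10; tool versions, the region caller and its thresholds are not given in the sources used here. The authors deposited 1 table of differentially methylated regions with, per region, a pooled mean methylation level per genotype as a fraction (0 to 1), plus the difference and an area statistic, both treated as scores here. The 3 deposited region lists per context repeat its positions with a score, and were used only to check them. No per-library level, count or depth was analysed.

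Both ends of all 2867 CG, 743 CHG and 3177 CHH nuclear regions fell on a cytosine of that context in RefSeq TAIR10.1, whose sequence and annotation were then used. The share left is the ndx1-4 level divided by the Col-0 level. Words of 31 bases were counted on both strands of the nuclear, mitochondrial and plastid genomes. No test was run, since the members were chosen by the contrast and 1 level per genotype allows none. Members, lists and rules were chosen with earlier results of these data known. Regions named were, per chromosome, the member with the largest absolute area statistic, the 3 with the largest fall, the highest Col-0 level and the lowest share left, the one with most cytosines, those at the core edges, and the 3 with the largest area statistic in protein-coding genes and with both CG and CHG losses; other regions were chosen after their values were seen. Alternatives narrowed or widened the core by 0.2 Mb, took subsets of members, left out each chromosome and varied overlap rules, word length and flank width. Scripts used Python 3.11.15, pandas 2.3.3, numpy 2.4.6 and statsmodels 0.14.6 and were tested on simulated data.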

Additional observations from a re-analysis of the deposited data

How the results depend on the processing

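Of 179 alternative values under 18 settings, 144 stayed close to the reported value, 35 moved and 0 changed sign. A member count was called close within a factor of 1.5 of the reported 788. Other values were called close within a range around each, such as 45.1% to 46.6% for the median share left. Narrowing the core by 0.2 Mb left 673 members, widening it gave 887, and merging members within 1 kb gave 693. Under these settings, and with regions wholly inside the core, no level or overlap with other contexts moved. Merging took the CWA share to 29.4%. In the 394 members in the upper 50% by area statistic, the median difference was −0.0798, the share left 43.9%, and 3.30% and 5.08% overlapped a lower CG and a lower CHG region. In the 123 members with a difference of at least 0.1, the median Col-0 level was 0.209, the difference −0.114 and the share left 43.9%, 82.6% of the listed CHH regions of the core were losses, and 0% overlapped a lower CG region. The smaller member number follows from each subset's construction. Without chromosome 2 the CG overlap was 1.00%. The CHG overlap was 1.65% where 50% of the member had to be covered and 4.70% within 500 bp. In an alternative added after the data were seen, the 247 members with no repeated 31-base word had a median Col-0 level of 0.118, a difference of −0.0664, 42.8% left, and 5.26% overlap with lower CG and 5.26% with lower CHG regions. Leaving out the 3 largest families, also added later, left 727 members, moved none of the levels or overlaps, and took the median share of repeated words to 12.8%. The cause of these shifts was not tested. No paired analysis was possible because the files hold 1 pooled level per genotype, and leaving out single libraries could not be run for the same reason. The unknown depth limits how firmly any single region can be read.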
